A study of Mus musculus with 15 samples.

Results

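MHC class II genes encode the molecules that carry peptides from the endosome to the cell surface, where CD4+ T cells read them. In the myocardium of mice, 13 probes of 7 such genes were examined: H2-Aa, H2-Ab1 and H2-Eb1, which encode the alpha and beta chains of the surface molecules, H2-DMa and H2-DMb1, whose products form the peptide exchanger H2-M, Cd74, the invariant chain that fills the groove until a peptide is loaded, and Ciita, the master transactivator of the family. They were chosen by symbol: every probe of the platform table that carries one of these 7 symbols was taken, out of 45281 probes on the array, which name 19057 genes in all. The samples were hearts of male C57Bl/6J mice aged 10 weeks, hybridised as biotin-labelled cRNA to Illumina BeadChip arrays, 15 arrays in 3 groups of 5. PBS mice were injected with PBS. DOX mice were injected with doxorubicin, an anthracycline given against tumours that can injure heart muscle. VEGF-B+DOX mice got AAV9-VEGF-B 7 days before doxorubicin; AAV9 is a viral vector that reaches the heart well, and VEGF-B is a growth factor of the vascular endothelium. Each heart was collected 20 hours after PBS or doxorubicin was injected. The effects of the vector and of VEGF-B cannot be told apart, and the vector's promoter is not given in the sources used here. The labels describe 5 mice per group but tie no array to an animal, so the p-values measure the spread between these arrays, which may be technical in part.

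Class II genes are expressed at a high level by dendritic cells, B cells and many macrophages, and interferon gamma can induce them in endothelial and other cells through Ciita. Ciita does not bind DNA itself. It docks on a complex of RFX, CREB or ATF, and NF-Y proteins that sits on conserved X and Y boxes just upstream of class II genes. In C57Bl/6J mice the alpha chain gene of the H2-E molecule, H2-Ea, is a pseudogene, so the H2-Eb1 chain has no H2-E partner.

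The RefSeq tables of build GRCm38.p6 list H2-DMa, H2-DMb1, H2-Ab1, H2-Aa and H2-Eb1 in that order on chromosome 17, with the class I processing genes Psmb9, Tap1 and Psmb8 between H2-DMb1 and H2-Ab1. Ciita and Cd74 lie on other chromosomes. Promoter windows of 300 bases, from 250 before to 50 after a transcription start, were used for 4 of the 7 genes. The windows of H2-Aa (chr17:34287774-34288073, minus strand), H2-Eb1 (chr17:34305617-34305916, plus strand) and H2-DMb1 (chr17:34152941-34153240, plus strand) are shown in the direction of transcription because they hold the Y box and the X box or its relative, the elements through which the family is known to be controlled together. Capitals mark matches to the Y box core TGATTGG, to the run AACTGATGATGCT at the X box and to the cAMP response element TGACGTCA, searched on both strands.

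H2-Aa: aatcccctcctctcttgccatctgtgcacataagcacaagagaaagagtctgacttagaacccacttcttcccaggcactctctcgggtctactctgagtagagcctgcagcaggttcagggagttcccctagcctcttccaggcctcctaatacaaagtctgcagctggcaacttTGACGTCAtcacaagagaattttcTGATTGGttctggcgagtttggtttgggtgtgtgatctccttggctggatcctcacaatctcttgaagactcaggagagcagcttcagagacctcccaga
H2-Eb1: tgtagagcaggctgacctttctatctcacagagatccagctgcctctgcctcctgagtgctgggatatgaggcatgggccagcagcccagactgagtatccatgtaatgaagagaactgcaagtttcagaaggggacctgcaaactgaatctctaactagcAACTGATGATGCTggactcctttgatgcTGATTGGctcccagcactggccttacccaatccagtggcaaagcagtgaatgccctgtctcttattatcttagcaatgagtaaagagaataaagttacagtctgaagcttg
H2-DMb1: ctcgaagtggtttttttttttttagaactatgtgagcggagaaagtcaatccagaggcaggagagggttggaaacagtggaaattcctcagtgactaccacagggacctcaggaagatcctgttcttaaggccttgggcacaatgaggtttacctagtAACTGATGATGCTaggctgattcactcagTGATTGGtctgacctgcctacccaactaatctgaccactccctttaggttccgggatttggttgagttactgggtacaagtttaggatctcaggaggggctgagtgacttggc

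The Y box core began 50, 61 and 63 bases before the start of H2-Aa, H2-Eb1 and H2-DMb1. H2-Eb1 and H2-DMb1 held the X box run 89 and 92 bases before the start, and H2-Aa held the cAMP response element 74 bases before it. None of the matches overlapped. Of 32851 promoter windows in the table, 7.82% held the Y box core, 0.00913% (3 windows) the X box run, 1.79% the cAMP response element, 0.00609% both the Y box core and the X box run, and 0.152% both the Y box core and the cAMP response element. The X box run was taken as the longest run that the H2-Eb1 and H2-DMb1 windows share, so its presence there is a description. Neither of the 2 H2-DMa windows held any of the 3 motifs.

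The values are log2 intensities deposited by the authors, with a median of 6.92 on every array and single values from 6.52 to 14.93. That the authors had quantile-normalized them was inferred from the values. Their floor lies close to the median, as in values without background subtraction, in which folds understate a change, most of all for dim probes. A probe counted as above background from 6.92 upwards. Of the 13 probes, 12 did so on at least 5 of 15 arrays and were tested with 24861 probes in all; they cover all 7 genes. Each fold is a difference of group means on the log2 scale, given ± its standard error in the limma fit (5 arrays per group), with p-values adjusted over all tested probes by the Benjamini-Hochberg method, and the number of arrays limits their precision. Exact permutation tests are two-sided, and the smallest p that 5 against 5 arrays allow is 0.00794. Markers of ventricular cardiomyocytes were bright on all arrays, with Tnnc1 and Actc1 at a mean of 14.72 and 14.62. The arrays PBS 4, PBS 5, DOX 5 and VEGF-B+DOX 5 stood apart on the second principal component of all tested probes, which held 19.3% of the variance, at -19.40 to -15.01 against -2.29 to 14.48 for the other 11. The number of all tested probes called in DOX against PBS was 80, and it was 2 without DOX 1 and 487 without DOX 2. Where single arrays move a result strongly, values without them are given beside it.

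The chains of the surface molecules read lower in DOX than in PBS hearts on every probe, and no probe passed the adjusted threshold. H2-Ab1, the beta chain of H2-A and the only H2-A chain covered by several probes, read 10.97, 10.73, 10.41, 10.72 and 10.64 in PBS and 9.98, 10.35, 9.33, 9.72 and 10.64 in DOX on its brightest probe, ILMN_1226525. DOX 1 to DOX 4 lay below every PBS array, while DOX 5 lay inside the PBS range, so the groups overlapped. The means were 10.69 ± 0.20 (SD, n = 5) and 10.00 ± 0.51, a log2 fold of -0.69 ± 0.18 (limma, adjusted p = 0.123; exact permutation test, p = 0.0238). The other H2-Ab1 probes, ILMN_2913716 and ILMN_2631423, stood at -0.63 ± 0.17 (limma, adjusted p = 0.134) and -0.50 ± 0.16 (adjusted p = 0.246), with exact permutation p = 0.0476 and 0.0794. In these bulk samples fewer cells of a type and less RNA per cell cannot be told apart.

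**Figure D1:**
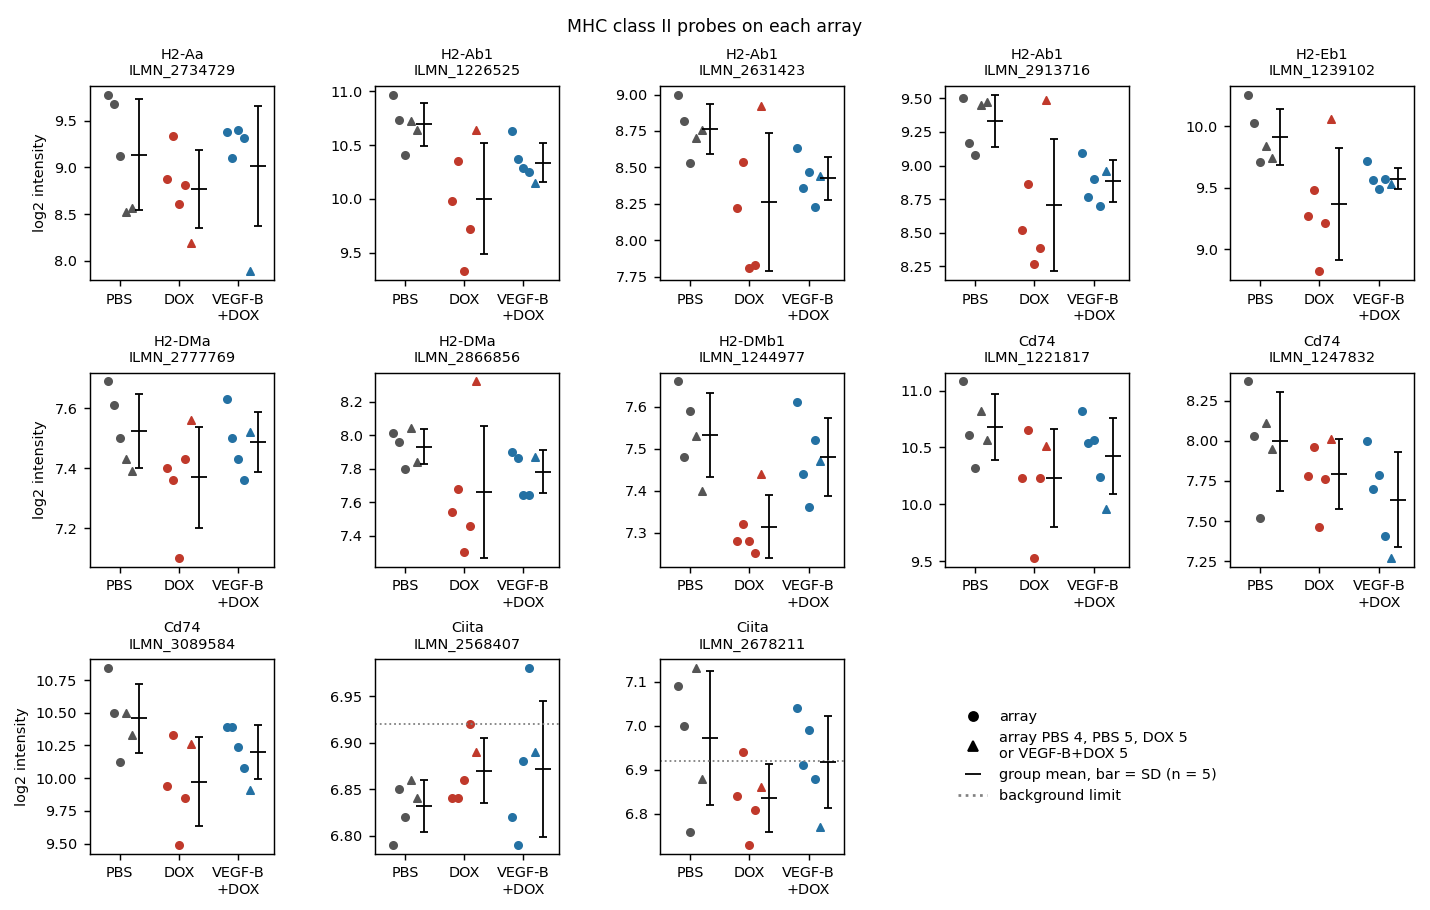
Log2 intensity of each of the 13 MHC class II probes on each of the 15 arrays, by group, with the group mean and SD (n = 5) beside the points; each panel has its own vertical scale that does not start at 0. Triangles are PBS 4, PBS 5, DOX 5 and VEGF-B+DOX 5. On the H2-Ab1 and H2-Eb1 panels DOX 5 is the highest DOX array, and on the H2-Aa panel the triangles are the lowest arrays of their groups.

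H2-Eb1, the beta chain of H2-E, read 10.26, 10.03, 9.71, 9.84 and 9.74 in PBS and 9.27, 9.48, 8.82, 9.21 and 10.06 in DOX. Again DOX 1 to DOX 4 lay below all PBS arrays and DOX 5 lay among them. The log2 fold was -0.55 ± 0.16 (limma, adjusted p = 0.181; exact permutation test, p = 0.0476). H2-Aa, the alpha chain of H2-A with 1 probe, read 9.78, 9.68, 9.12, 8.52 and 8.57 in PBS and 8.88, 9.34, 8.61, 8.81 and 8.19 in DOX. Its values were spread over more than 1 log2 unit within each group, and its fold of -0.37 ± 0.29 was about the size of its error (adjusted p = 0.732; exact permutation test, p = 0.278).

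Cd74, the invariant chain, read 11.08, 10.61, 10.32, 10.82 and 10.57 in PBS and 10.23, 10.65, 9.53, 10.23 and 10.51 in DOX on its brightest probe, ILMN_1221817. Here DOX 1, DOX 3 and DOX 4 lay below all PBS arrays, and DOX 2 and DOX 5 lay inside their range. Its log2 fold was -0.45 ± 0.19 (limma, adjusted p = 0.402; exact permutation test, p = 0.0635). The probe ILMN_3089584 stood at -0.48 ± 0.15 (adjusted p = 0.209) and the dimmer ILMN_1247832 at -0.20 ± 0.15 (adjusted p = 0.707), so the 3 probes of the invariant chain shared their sign but not their size.

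The peptide exchanger genes were dimmer than the surface chains, with group means of 7.31 to 7.93 in PBS and DOX. Their probes were above background on 15 of 15 arrays, and their folds lay between -0.27 and -0.15. H2-DMb1 read 7.66, 7.48, 7.59, 7.53 and 7.40 in PBS and 7.28, 7.32, 7.28, 7.25 and 7.44 in DOX. DOX 5 was once more the only DOX array above the lowest PBS array. Its log2 fold was -0.22 ± 0.06 (limma, adjusted p = 0.18; exact permutation test, p = 0.0159). H2-DMb2, a close copy of H2-DMb1 in mice, stood at -0.19 ± 0.09 (adjusted p = 0.464), and cross-hybridisation between the 2 genes was not tested. The 2 probes of H2-DMa stood at -0.27 ± 0.14 (ILMN_2866856, adjusted p = 0.514) and -0.15 ± 0.08 (ILMN_2777769, adjusted p = 0.544). On ILMN_2866856 DOX 5 read 8.32, above all PBS arrays, and the other 4 DOX arrays read 7.30 to 7.68, below all of them.

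Ciita was at the edge of detection. Its probe ILMN_2568407 was above background on 0 of 5 PBS, 1 of 5 DOX and 1 of 5 VEGF-B+DOX arrays and was not tested. The probe ILMN_2678211 was above background on 3 of 5 PBS, 1 of 5 DOX and 2 of 5 VEGF-B+DOX arrays, at 7.09, 7.00, 6.76, 7.13 and 6.88 in PBS and 6.84, 6.94, 6.73, 6.81 and 6.86 in DOX. It stood at -0.14 ± 0.06 in DOX against PBS (limma, adjusted p = 0.486), and a fold so close to background has little meaning as a size. It entered the test partly through PBS arrays.

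Over the 12 tested probes, 0 passed in DOX against PBS with limma, against 0.322% of all tested probes. At an unadjusted p under 0.05, 7 of 12 were lower and 0 higher, against 5.37% of all tested probes that were lower and 4.92% that were higher. All 12 folds were below 0, against 49.4% of all tested probes, and their median was -0.41, where that of all tested probes was 0. The 12 probes belong to 7 genes and share their arrays, so they are not independent of each other. On 0 of 12 probes did the groups not overlap, against 0.953% of all tested probes that were lower without overlap and 0.981% that were higher.

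**Figure D2:**
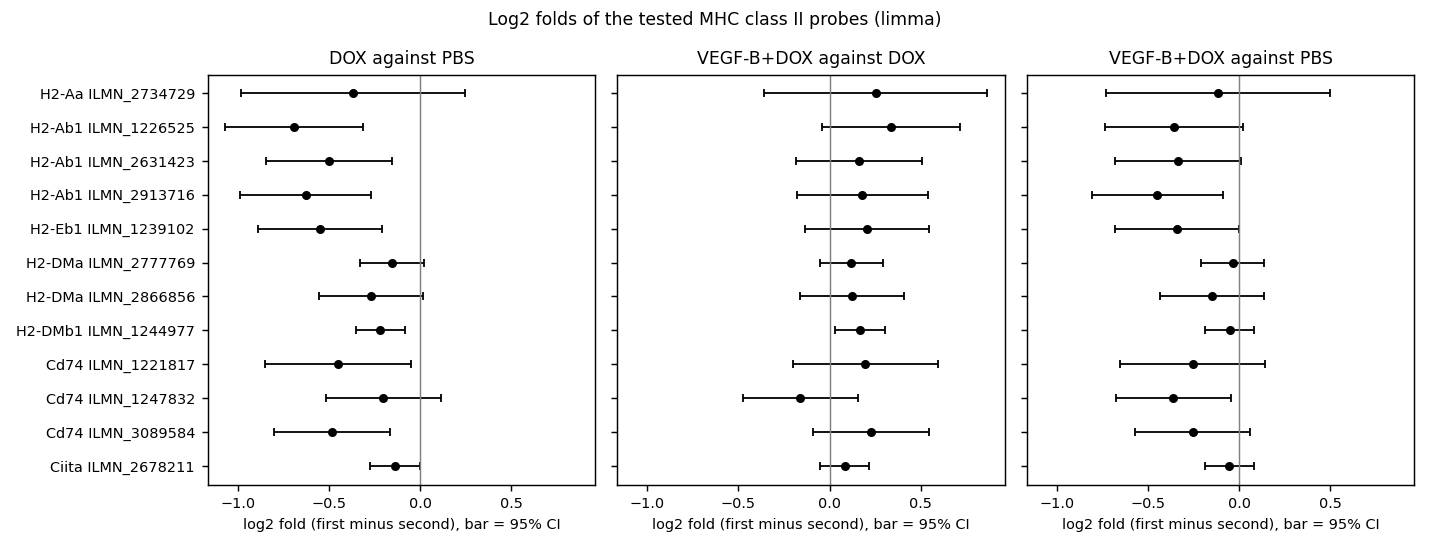
Log2 folds of the 12 tested MHC class II probes in 3 comparisons, first group minus second, with 95% confidence intervals of the limma fit; the vertical line marks 0. In DOX against PBS all 12 points lie to the left of 0, and in VEGF-B+DOX against DOX 11 of 12 lie to the right, most with intervals that span 0.

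How these folds stood to the threshold depended on single arrays. Without DOX 5, 5 probes passed in DOX against PBS, all lower: H2-Ab1 ILMN_1226525 at -0.85 (limma, adjusted p = 0.0324), ILMN_2913716 at -0.82 (adjusted p = 0.00863) and ILMN_2631423 at -0.66 (adjusted p = 0.0413), H2-Eb1 at -0.72 (adjusted p = 0.0202) and H2-DMa ILMN_2866856 at -0.44 (adjusted p = 0.0413). The same fit called 79 of all tested probes, close to the 80 with DOX 5. Without DOX 2, H2-Ab1 ILMN_1226525 passed, at -0.78 (adjusted p = 0.0377), also when VEGF-B+DOX 3 was left out with it (adjusted p = 0.0366). Other omissions brought the folds nearer to 0. Without DOX 3, the lowest DOX array, the median of the 12 probes was -0.30, with H2-Ab1 ILMN_1226525 at -0.52 (limma, adjusted p = 0.307), H2-Eb1 at -0.41 (adjusted p = 0.455) and Cd74 ILMN_1221817 at -0.28 (adjusted p = 0.742). Without PBS 1 the median was -0.30 as well, and H2-Aa stood at -0.21 (adjusted p = 0.877). Within the 11 arrays left without PBS 4, PBS 5, DOX 5 and VEGF-B+DOX 5, 0 of 12 probes and 1 of all tested probes passed. For 11 of 12 member probes the fold was farther from 0 there, Ciita being the exception, and the median was -0.55. H2-Ab1 ILMN_1226525 stood at -0.86 (adjusted p = 0.183), H2-Eb1 at -0.81 (adjusted p = 0.101) and H2-Aa at -0.62 (adjusted p = 0.243).

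The comparison of VEGF-B+DOX with DOX asks how hearts given the vector before the drug differed from those given the drug alone. No group got the vector without doxorubicin. An effect of the vector itself and a changed response to the drug therefore cannot be told apart. Class II chains read higher than in DOX hearts on most probes, by less than the drug group differed from PBS, and again no probe passed. This comparison shares its DOX arrays with DOX against PBS. Low values on those arrays move its folds up and the folds of DOX against PBS down, so the opposite signs are not separate observations. H2-Ab1 ILMN_1226525 read 10.63, 10.37, 10.29, 10.25 and 10.15 in VEGF-B+DOX. All 5 values lay inside the wide range of the DOX arrays, and the log2 fold was 0.33 ± 0.18 (limma, adjusted p = 0.299; exact permutation test, p = 0.222). H2-Eb1 read 9.72, 9.56, 9.49, 9.57 and 9.53, also inside the DOX range, with a fold of 0.21 ± 0.16 (adjusted p = 0.516). The member of smallest p was H2-DMb1, at 7.61, 7.44, 7.36, 7.52 and 7.47. Of these, 3 lay above every DOX array, and its fold was 0.17 ± 0.06 (limma, adjusted p = 0.124; exact permutation test, p = 0.0238).

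Among the other members, H2-Aa stood at 0.25 ± 0.29 (limma, adjusted p = 0.687) and the Cd74 probes ILMN_1221817 and ILMN_3089584 at 0.20 ± 0.19 and 0.23 ± 0.15 (adjusted p = 0.615 and 0.422). The dim Cd74 probe ILMN_1247832 was the exception in sign, at -0.16 ± 0.15 (adjusted p = 0.603). Over the 12 probes, 0 passed with limma, against 9.59% of all tested probes (3.17% lower and 6.42% higher), and 0 were lower and 1 higher at an unadjusted p under 0.05, against 10.9% of all tested probes in each direction. By their means 11 of 12 were higher and 1 was lower, where 56.7% of all tested probes were lower. On 0 of 12 did the groups not overlap, against 2.56% of all tested probes lower and 5.19% higher without overlap. Their median fold was 0.17, and that of all tested probes -0.02. Within the 11 arrays the median of the members was 0.34 and 0 of 12 passed, with H2-Ab1 ILMN_1226525 at 0.54 (adjusted p = 0.0647). Without DOX 3 alone the median was 0.06, with H2-Ab1 ILMN_1226525 at 0.17 (adjusted p = 0.624), H2-Eb1 at 0.07 (adjusted p = 0.861) and Cd74 ILMN_1221817 at 0.02 (adjusted p = 0.967). Markers of several cell types were higher in the same comparison: 8 of 9 endothelial genes rose (median 0.81), 3 of 6 general leukocyte genes rose (median 0.35), 12 of 14 macrophage genes had folds above 0 with 0 past the threshold (median 0.19), and 6 of 7 fibroblast genes had folds above 0 (median 0.29), of which the collagen gene Col1a1 rose by 0.86 ± 0.16 (limma, adjusted p = 0.00144). Their part in the class II values was not tested.

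VEGF-B+DOX and PBS hearts were compared to ask how far drug and vector together left the myocardium from its control state. This comparison shares its PBS arrays with DOX against PBS and its VEGF-B+DOX arrays with the one before. The H2-A and H2-E beta chains read below every PBS array on 4 of 5 VEGF-B+DOX arrays. On H2-Ab1 ILMN_1226525 all VEGF-B+DOX arrays but VEGF-B+DOX 1 lay below every PBS array, with a log2 fold of -0.36 ± 0.18 (limma, adjusted p = 0.242). The other H2-Ab1 probes stood at -0.45 ± 0.17 (ILMN_2913716, adjusted p = 0.105) and -0.34 ± 0.16 (ILMN_2631423, adjusted p = 0.223), and H2-Eb1 at -0.34 ± 0.16 (adjusted p = 0.206). For each of these 4 probes the exact permutation test gave p = 0.0159. A fit with only the PBS and VEGF-B+DOX arrays leaves out the spread of the DOX arrays. In that fit these 4 probes passed (limma, adjusted p = 0.0473, 0.0109, 0.0366 and 0.0432). The share of all tested probes that passed in it is not given here, so these 4 cannot be set against it. In the main fit of this comparison 11.4% of all tested probes passed.

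Cd74, H2-Aa and H2-DMb1 also read lower by their means. Cd74 stood at -0.25 ± 0.19, -0.26 ± 0.15 and -0.36 ± 0.15 on ILMN_1221817, ILMN_3089584 and ILMN_1247832 (limma, adjusted p = 0.47, 0.335 and 0.14), and the last of these passed without PBS 3, at -0.48 (adjusted p = 0.0363). The share of all tested probes that passed without PBS 3 is not given here. H2-Aa stood at -0.12 ± 0.29 and H2-DMb1 at -0.05 ± 0.06 (adjusted p = 0.871 and 0.704). All 12 folds were below 0, against 54.7% of all tested probes, and the median was -0.26, where that of all tested probes was -0.01. Without PBS 1 it was -0.16. With limma 0 of 12 passed, against 11.4% of all tested probes (4.71% lower and 6.72% higher), and 3 of 12 were lower and 0 higher at an unadjusted p under 0.05, against 12.3% and 11.7%. On 0 of 12 did the groups not overlap, against 4.24% of all tested probes lower and 5.46% higher without overlap.

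The spread within the groups differed on the same probes. On H2-Ab1 ILMN_1226525 the SD was 0.51 in DOX, 0.20 in PBS and 0.18 in VEGF-B+DOX, and on H2-Eb1 it was 0.45, 0.23 and 0.09. DOX 3 was the lowest and DOX 5 the highest DOX array on both. These differences in spread were not tested.

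The probes of H2-Ab1, H2-Eb1 and Cd74 followed each other across arrays. Over the 15 arrays Pearson's r between any 2 of these 7 probes was 0.63 to 0.96, with a median of 0.85, and with the group means taken off it was 0.59 to 0.95. The points share their arrays and their normalization. H2-Aa did not follow them: its r with the same 7 probes was 0.007 to 0.51, with a median of 0.32. The difference between H2-Aa and H2-Ab1 ILMN_1226525 on an array was -1.29 to -0.72 on 11 arrays and -2.20, -2.07, -2.45 and -2.26 on PBS 4, PBS 5, DOX 5 and VEGF-B+DOX 5, the 4 arrays set apart by the second principal component. No array lay between these ranges, and each group held arrays of both kinds. H2-Eb1 minus H2-Ab1 did not split in this way, at -0.91 to -0.51 over all 15 arrays. What sets the 4 arrays apart was not tested, and the labels give no batch for them. They are the last 4 samples in the numbering of the series.

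**Figure D3:**
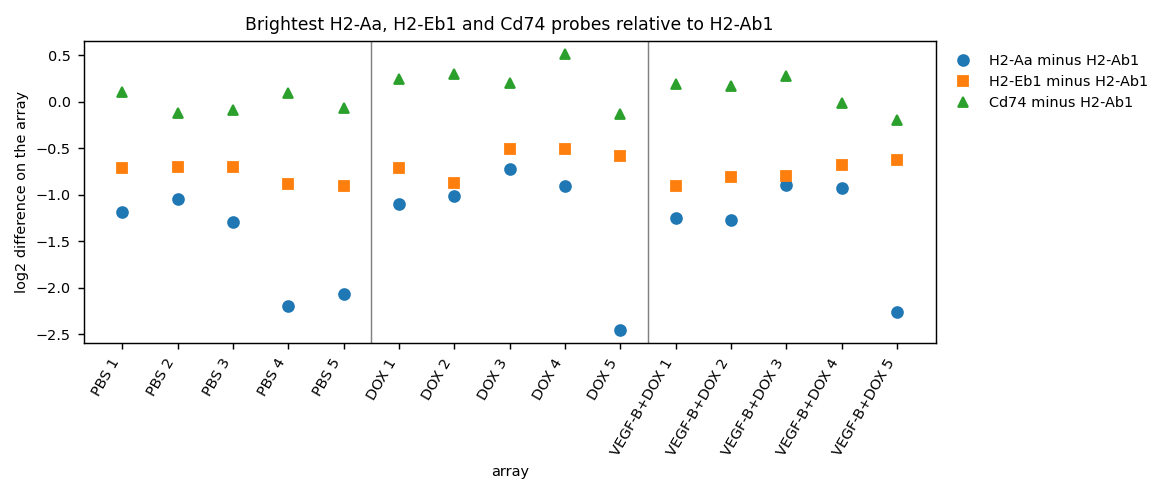
Difference in log2 intensity between the brightest probes of H2-Aa, H2-Eb1 and Cd74 and that of H2-Ab1 on each of the 15 arrays; vertical lines separate the groups. H2-Aa minus H2-Ab1 lies at -2.07 or below on PBS 4, PBS 5, DOX 5 and VEGF-B+DOX 5 and at -1.29 or above on the other 11 arrays, while H2-Eb1 minus H2-Ab1 stays between -0.91 and -0.51.

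By rule, the genes most like the class II members were those of highest Pearson's r over 15 arrays with the mean of the brightest H2-Aa, H2-Ab1, H2-Eb1 and Cd74 probes, among 20417 tested probes with 1 symbol. They were the proteasome subunit gene Psmb2 (r = 0.84), the RNA-binding protein gene Bicc1 (0.81), Atxn2 (0.80), the prostaglandin dehydrogenase gene Hpgd (0.80) and the lysosomal glucuronidase gene Gusb (0.78). With group means taken off they were the cyclin gene Ccnd3 (r = 0.84), Nhlrc1 (0.84), the small GTPase gene Rab10 (0.82), Nsmf (0.82) and the collagen gene Col6a2 (0.82). The 2 sets of 5 share 0 genes. None of the 10 is a marker in the lists of dendritic cells, macrophages, B cells or T cells used here. Those lists held only 5, 14, 3 and 4 tested genes, so their absence among the top 5 of 20417 probes says little. H2-Aa is part of the reference mean but did not follow H2-Ab1, H2-Eb1 and Cd74. A high r therefore need not mean likeness to those genes. The named genes are also the highest of 20417 values of r over only 15 arrays. How high r runs among that many unrelated probes was not tested. Of the 10, Hpgd, Nhlrc1, Rab10 and Nsmf read lowest in PBS and VEGF-B+DOX on the arrays where H2-Aa minus H2-Ab1 was lowest. In DOX they did not, and the other genes did not show this. A ranking without H2-Aa is not given here.

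The other class II chains gave little signal. H2-Ea read 6.67 to 6.90 and was above background on 0 of 15 arrays, and H2-Oa, the alpha chain of the exchanger's inhibitor, was above background on at most 2 arrays on either probe. Of the 3 tested genes, H2-DMb2, H2-Ob and H2-Eb2, none passed in any comparison with limma, and their medians were 0.02, 0.03 and -0.01 in DOX against PBS, VEGF-B+DOX against DOX and VEGF-B+DOX against PBS. Of the factors that bind class II promoters, 0 of 7 tested genes passed in any of the 3 comparisons, with folds from -0.13 to 0.18. The RFX subunit gene Rfxap stood at 0.18 ± 0.07 in DOX against PBS (adjusted p = 0.351). Both probes of Rfx5 were too dim to be tested.

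Genes of peptide generation and invariant chain cleavage did not pass either, 0 of 8 in each comparison. The cathepsin gene Ctsd stood at 0.22 ± 0.10 in DOX against PBS (limma, adjusted p = 0.43). The thiol reductase gene Ifi30 stood at 0.27 ± 0.11 in VEGF-B+DOX against DOX (adjusted p = 0.12). Ctss, the protease that trims the invariant chain in antigen-presenting cells, stood at 0.06 ± 0.07 and 0.04 ± 0.07 in these comparisons (adjusted p = 0.846 and 0.787). Of the genes that govern removal from the surface, 0 of 4 tested genes passed. Marchf1, the ubiquitin ligase that marks class II molecules for degradation, stood at 0.08 ± 0.05 in DOX against PBS (adjusted p = 0.622). Cd83, which opposes it, stood at -0.18 ± 0.08 (adjusted p = 0.417). The mean levels of Ctss and Marchf1 were 7.11 and 7.06, near background, where small folds say little.

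Several interferon gamma pathway genes rose in VEGF-B+DOX hearts. In VEGF-B+DOX against DOX, 4 of 9 tested genes rose and 0 fell, with a list median of 0.24: the chemokine genes Cxcl9 by 0.76 ± 0.11 (limma, adjusted p = 1.76e-04) and Cxcl10 by 0.27 ± 0.07 (adjusted p = 0.015), the receptor gene Ifngr1 by 0.39 ± 0.07 (adjusted p = 0.0019) and the transcription factor gene Irf1 by 0.39 ± 0.11 (adjusted p = 0.0279). Against PBS, 5 of 9 rose, these 4 and Jak2, while the second receptor gene Ifngr2 fell by 0.35 ± 0.10 (adjusted p = 0.0226). Cxcl10 had means of 6.89 in PBS and 6.87 in DOX, below the background limit of 6.92, and 7.14 in VEGF-B+DOX. It may have entered the test mainly through VEGF-B+DOX arrays, and so close to background its fold has little meaning as a size. In DOX against PBS 0 of 9 passed, with a median of -0.02. The gene of the cytokine itself, Ifng, was above background on 0 of 15 arrays on both probes.

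In DOX against PBS the class I and class II lists had medians of opposite sign. In DOX against PBS all 9 tested genes of the class I list had folds above 0, with a median of 0.20, and 1 passed, the immunoproteasome subunit gene Psmb9 at 0.54 ± 0.10 (limma, adjusted p = 0.0283), a neighbour of the class II genes on chromosome 17. In VEGF-B+DOX against PBS 6 of 9 rose, with a median of 0.55, among them the heavy chain gene H2-D1 by 0.83 ± 0.09 (adjusted p = 1.35e-05), the light chain gene B2m by 0.78 ± 0.12 (adjusted p = 2.81e-04) and Nlrc5, the class I counterpart of Ciita, by 0.55 ± 0.15 (adjusted p = 0.021). Of the costimulatory genes 1 of 5 passed, Cd40, which rose by 0.50 ± 0.07 in VEGF-B+DOX against DOX (adjusted p = 8.72e-05) and stood at -0.16 ± 0.07 in DOX against PBS (adjusted p = 0.432). The difference between class I and class II folds was not tested.

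**Figure D4:**
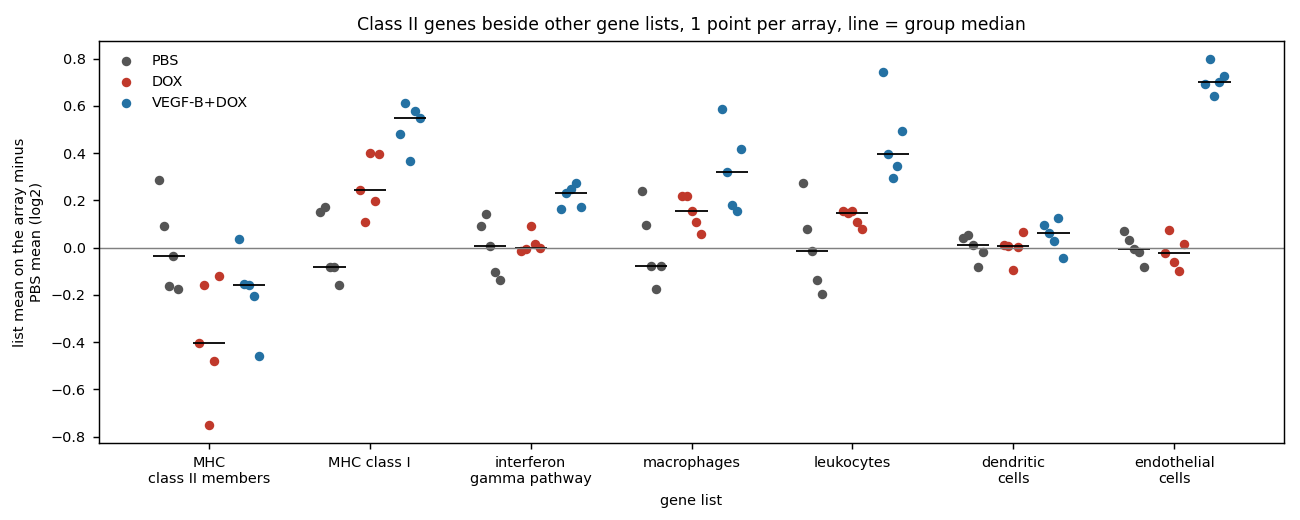
Mean log2 level of the brightest tested probe of each gene in 7 gene lists on each array, minus the PBS mean of the same probes; points are arrays, coloured by group, and lines are group medians. The class II members lie at -0.75 to -0.12 on the DOX arrays, where the macrophage list lies at 0.06 to 0.22 and the class I list at 0.11 to 0.40.

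Markers of the cells that carry class II molecules were set beside these values. Of 10 dendritic cell markers Flt3, Itgax, Xcr1, Clec9a and Cd209a were too dim to be tested. Of the other 5 tested genes 0 passed in DOX against PBS. Their list means on single arrays were -0.08 to 0.05 in PBS and -0.09 to 0.07 in DOX. Batf3, Irf4, Ccr7 and Siglech had mean levels of 6.90 to 7.08, near background, where a change can hardly show. Among 14 tested macrophage markers 0 passed in DOX against PBS, with a median of 0.09 and list means of -0.18 to 0.24 in PBS and 0.06 to 0.22 in DOX. The complement gene C1qb and the lysozyme gene Lyz2, the 2 brightest, stood at 0.42 ± 0.13 and -0.02 ± 0.19 (limma, adjusted p = 0.209 and 0.991). Those of smallest p were Fcgr1 at 0.30 ± 0.07 and Lyve1 at 0.73 ± 0.18 (limma, adjusted p = 0.0753 and 0.105). Of the 14 folds, 9 lay above 0 and 5 below, the lowest being Ccr2 at -0.17 ± 0.09 (limma, adjusted p = 0.562). Among 6 general leukocyte genes 0 passed, with a median of 0.07. Of 4 tested neutrophil markers 2 rose, the calprotectin genes S100a9 by 1.34 ± 0.18 and S100a8 by 1.18 ± 0.18 (limma, adjusted p = 0.00921 and 0.0102), with a list median of 0.69. Of 7 fibroblast markers 0 passed and 6 had folds below 0, with a median of -0.19 and list means of -0.09 to 0.07 in PBS and -0.32 to 0.10 in DOX. Of 3 tested B cell and 4 tested T cell markers 0 passed in this comparison, and the B cell list mean was -0.06 to 0.07 in PBS and -0.23 to 0.03 in DOX. The 3 B cell markers had mean levels of 7.02 to 7.15, near background, and the T cell markers Cd3d, Cd3g and Cd247 of 6.87 to 6.93. The other tested T cell marker, Cd8b1, read 10.16 to 10.89 on its counted probe. Its other probes read 6.74 to 6.87 and 6.88 to 7.25, and whether the bright probe reads T cells was not tested. The part of any of these cells in the class II values was not tested.

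In VEGF-B+DOX against PBS, 5 of 14 macrophage markers rose, with a median of 0.36, led by C1qb at 0.71 ± 0.13 (limma, adjusted p = 0.00145), and 5 of 6 leukocyte genes rose, with Laptm5 at 0.78 ± 0.15 (adjusted p = 0.00154) and Fcer1g at 0.66 ± 0.13 (adjusted p = 0.00242). Of 9 endothelial markers 8 rose, with a median of 0.81. Of the dendritic cell markers Zbtb46, which endothelial cells also express, rose by 0.28 ± 0.09 (adjusted p = 0.0466). In the same comparison the class II members had a median of -0.15 over the brightest probe of each of the 7 genes, and 0 of 7 passed.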

How the data were processed

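The deposited log2 values were used as the authors left them. That they are log2 was read from their range, and that the authors had quantile-normalized them was inferred from their equal distributions on all arrays. The software is not given in the sources used here. The deposited raw signals were not analysed here, because none of the 15 sample columns could be tied to a labelled sample.

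Background was taken as the mode of all values, 6.80, with an SD of 0.0729 from the values below it, and its 95% limit was 6.92. Probes above it on at least 5 of 15 arrays were tested with limma 3.58.1 in R 4.3.3: a mean per group over 15 arrays, 12 residual degrees of freedom, a variance trend, Benjamini-Hochberg adjustment over 24861 probes and a threshold of 0.05. Of 45281 probes, 34885 carry 1 symbol.

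All probes of the 7 genes were named. From the other lists, counts used the brightest tested probe of each gene, and up to 4 genes of smallest p per comparison and, for cell types, the 2 brightest genes could be named. Genes most like the members were the 5 of highest Pearson's r. Ctss and Nlrc5 fall outside this rule and were named for their roles, and Jak2 and Ifngr2 to account for a count, after their values were seen. Members and lists were chosen with earlier results of these data known. Sequences come from RefSeq tables. Sequence matching and plotting used Python 3.11.15 and matplotlib 3.10.9.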

Additional observations from a re-analysis of the deposited data

Results flagged for a closer look

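On the H2-Aa probe ILMN_2734729, VEGF-B+DOX 5 read 7.89, far from the other 4 arrays of its group, of which the nearest read 9.10: the gap was 0.801 of the range of the group. Of 36 sets of 5 arrays examined in this way 1 stood out, and chance flags about 1 in 20 of such sets. Without this array the fold of H2-Aa in VEGF-B+DOX against PBS was 0.17 (limma, adjusted p = 0.75), where it was -0.12 with it. The same array read 8.44 to 10.15 on the 3 H2-Ab1 probes, where it did not stand apart.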

How the results depend on the processing

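The number of class II probes called was 0 in each comparison, and 0 also without a filter on dim probes, with a stricter one, without a variance trend, with a robust variance prior, after normexp correction and with the replicate block. With array weights it was 3 in DOX against PBS, 2 in VEGF-B+DOX against DOX and 1 in VEGF-B+DOX against PBS. The same fits called 201 of all tested probes in DOX against PBS and 3601 in VEGF-B+DOX against DOX, where the main fits called 80 and 2383. The number of class II probes was 4 in VEGF-B+DOX against PBS with only the 2 groups. It was 1 in DOX against PBS without DOX 2 and VEGF-B+DOX 3, where 677 of all tested probes were called. The share of all tested probes called in the refits of VEGF-B+DOX against PBS is not given here. Leaving out each array gave 0 to 5 class II probes in DOX against PBS, 0 to 0 in VEGF-B+DOX against DOX and 0 to 1 in VEGF-B+DOX against PBS. Over 36 folds and 717 refits, 18 passed the threshold and 5 turned in sign, all in VEGF-B+DOX against PBS: H2-Aa at 0.05, 0.02 and 0.17 without PBS 1, PBS 2 or VEGF-B+DOX 5 (range -0.27 to 0.17), H2-DMa ILMN_2777769 at 0.0055 without PBS 1 (range -0.0715 to 0.0055) and Ciita at 0.005 within the 11 arrays. The cause was not tested. The raw signal table with neqc and slide as a block was not run. Signal over background limits Ciita most, since its tested probe was above background on 6 of 15 arrays. Deviations of same-numbered arrays from their group means correlated at -0.412 to 0.631, so the replicate numbers were not taken to pair the arrays.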
